A study of Homo sapiens with 8 samples.

Results

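The enzymes that write DNA methylation and the histone mark of Polycomb repression were followed through 8 two-colour microarrays of human cancer cells transfected with single miRNAs. The genes were DNMT1, DNMT3A, DNMT3B, UHRF1, EZH2, EZH1, EED and SUZ12. They were chosen by gene name for their function, with earlier results of these data known. Every probe that the scanner files named for them was used: 12 probes on 21 spots, for 8 of the 43317 gene names on the array (58201 probes on 60901 spots). Each array set RNA of cells transfected with 1 mature miRNA, labelled with Cy5, against mock RNA of that line, labelled with Cy3 and given in the labels as not transfected. Per the study's methods, a mock culture received no miRNA precursor, and no array here held a control precursor. HCT116, a colorectal cancer line, received miR-139 or miR-143, each as its 5p or as its 3p strand. PANC-1, a pancreatic cancer line, received the 5p strand of miR-30c or of miR-30a, or the strand miR-30c-2-3p or miR-30a-3p. In these names 5p is the strand that is usually loaded for miR-139 and miR-30, the guide strand, and 3p is the usual passenger. For miR-143 the usual guide is 3p.

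DNA methylation is set by DNMT3A and DNMT3B, which methylate unmodified DNA, and is copied to the new strand after replication by DNMT1. UHRF1 binds hemimethylated DNA behind the replication fork and brings DNMT1 there. The Polycomb repressive complex PRC2 places methyl groups on lysine 27 of histone H3: EZH2 or EZH1 is the catalytic subunit, while EED, which also binds the finished mark, and SUZ12, the scaffold, are needed for activity. EZH2, UHRF1 and DNMT1 are known to be most abundant in dividing cells, whereas EZH1 is known from cells that rest. DNMT3A has been described as a target of miR-143-3p, and EED as a target of the miR-30 guide strands.

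The transfected strands are shown because a miRNA finds its targets mainly through its seed, bases 2 to 8 from the 5′ end, which is in capitals. The sequences are the RefSeq mature miRNAs of build GRCh38.p14, and all 8 matched by name.
miR-139-5p: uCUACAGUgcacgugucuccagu
miR-139-3p: uGGAGACGcggcccuguuggagu
miR-143-5p: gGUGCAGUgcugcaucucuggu
miR-143-3p: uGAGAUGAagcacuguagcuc
miR-30c-5p: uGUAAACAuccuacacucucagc
miR-30a-5p: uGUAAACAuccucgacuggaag
miR-30c-2-3p: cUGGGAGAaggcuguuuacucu
miR-30a-3p: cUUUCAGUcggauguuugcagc
Both miR-30 guide strands had the seed GUAAACA, and each of the other 6 strands had a seed of its own. None of the 12 probes held a heptamer complementary to bases 2 to 8 of any of the 8 strands, or to bases 2 to 7 followed by A.

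There was 1 array per miRNA and no array with the dyes exchanged, so a ratio has no error over cultures and no test, and a dye effect and the transfection cannot be told apart. The 2 arrays of a precursor had nearly the same mock channel: 8 to 37 genes lay at least 1.5-fold apart between them, against 997 to 1074 between precursors in HCT116 and 238 to 256 in PANC-1. They were therefore counted as 1 mock, and ratios of such a pair share their baseline. No spot was saturated, and all arrays lay on one slide. As a check of the labels, genes whose probe held a heptamer of the transfected strand had a lower median log2 ratio than other detected genes on 7 arrays, with differences of -0.08 to -0.02. The exception was the array labelled miR-143-3p, where 199 such genes had a median of 0.03 against 0.01 for the other 19910. That difference of 0.02 is no larger than the -0.02 on the miR-139-3p array. All these differences are small, and no other heptamer was read on an array for comparison, so the check cannot decide any label. The line labels were checked on markers: EPCAM and CDH1, of epithelial cells, were higher in HCT116 mocks by 4.38 and 3.03 on the log2 scale, and VIM and ZEB1, of mesenchymal cells, were higher in PANC-1 mocks, with HCT116 minus PANC-1 at -9.01 and -2.52. The intestinal markers CDH17 and VIL1 and the mesenchymal FN1 were not well above background in any mock, and the intestinal LGALS4 was well above it in PANC-1 mocks only, with HCT116 minus PANC-1 at -0.40 (limma adjusted p = 0.025).

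Values below are log2 ratios of miRNA over mock, from the brightest probe of a gene unless another is named. A gene was called lower or higher when the ratio was at least 1.5-fold from 1, a distance of 0.585 on the log2 scale. With 8 genes on 8 arrays there were 64 values, of which 13 were lower, 3 were higher and 48 were neither. Of all detected genes, 1.1% to 10.2% were lower and 0.753% to 7.41% were higher, depending on the array. On every array, all 8 brightest probes passed the well-above-background call in each channel. Over the probes printed in 10 spots, the median SD between spots of an array was 0.04 to 0.06, which is a spread within 1 hybridisation only. In bulk RNA, fewer cells that make a transcript and less of it per cell cannot be told apart.

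**Figure D1:**
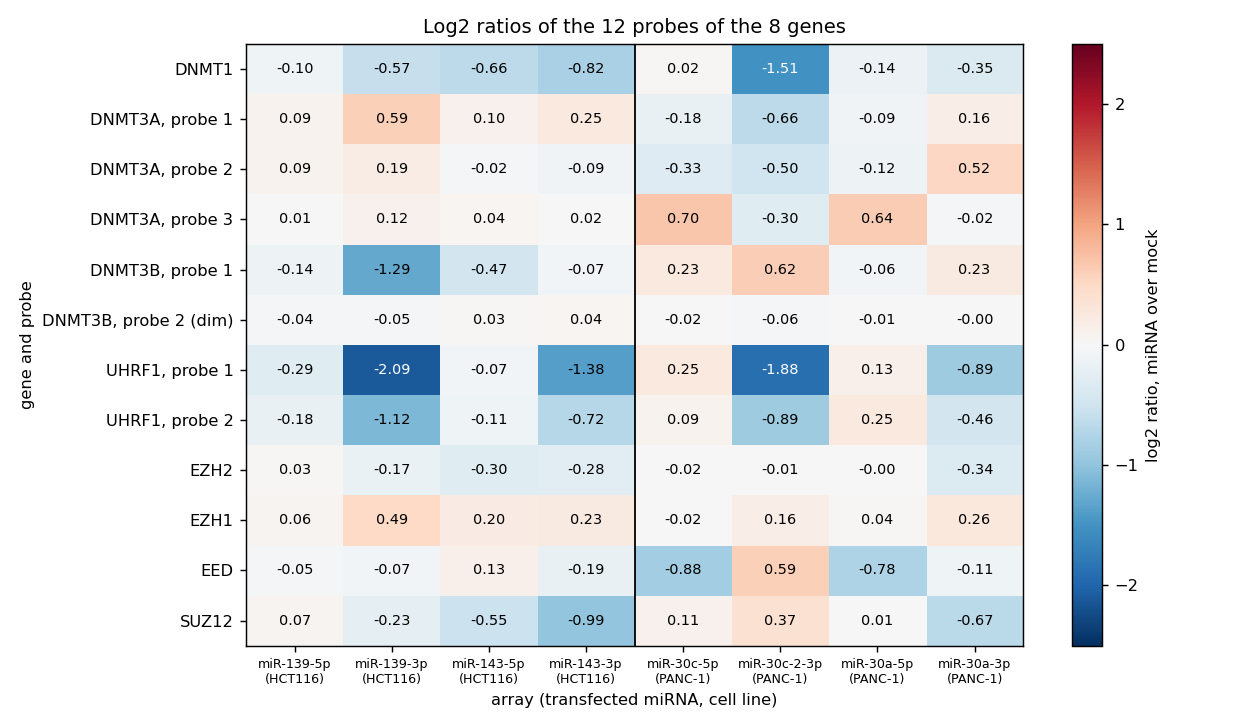
Log2 ratio of miRNA over mock for the 12 probes (rows) on the 8 arrays (columns, HCT116 left of the line and PANC-1 right of it), printed in each cell and shown as colour. The lowest cells belong to UHRF1 probe 1 on the miR-139-3p array (-2.09) and the miR-30c-2-3p array (-1.88), and the DNMT3B probe marked dim was not well above background on any array.

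The maintenance genes UHRF1 and DNMT1 held 7 of the 13 lower values. Both were lower on the arrays labelled miR-143-3p and miR-30c-2-3p, UHRF1 alone was called on the miR-139-3p and miR-30a-3p arrays, and DNMT1 alone on the miR-143-5p array.

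UHRF1, which reads hemimethylated DNA, had the lowest ratio of the 64. Its brightest probe lies at chr19:4962065-4962124 on the plus strand of hg19, the build the files use for all probes, and whether a probe lies in coding sequence or in a UTR was not analysed here. In HCT116 it stood at -0.29 under miR-139-5p, -2.09 under miR-139-3p, -0.07 under miR-143-5p and, where the label gives its 3p strand, -1.38. In PANC-1 it stood at 0.25 under miR-30c-5p, -1.88 under miR-30c-2-3p, 0.13 under miR-30a-5p and -0.89 under miR-30a-3p. The 4 arrays of 3p strands were thus all lower than the 4 arrays of 5p strands, and their levels were 4.26-fold, 2.60-fold, 3.67-fold and 1.85-fold below the mock in the order given. On the 3p arrays 0.12%, 0.23%, 0.52% and 1.56% of detected genes had a lower ratio than UHRF1. Its second probe went the same way on these 4 arrays at a smaller size, with -1.12, -0.72, -0.89 and -0.46. Centring each array on its median instead of fitting the dye curve (loess) took the miR-30a-3p value to -0.24, which is no longer called, and left the other 3 past the threshold.

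DNMT1, the maintenance methyltransferase, was lowest under miR-30c-2-3p at -1.51, a level 2.84-fold under the mock. The other PANC-1 arrays gave 0.02 under miR-30c-5p, -0.14 under miR-30a-5p and -0.35 under miR-30a-3p, all short of the threshold. In HCT116 the ratios were -0.10 under miR-139-5p, -0.57 under miR-139-3p, -0.66 under miR-143-5p and, where the label gives its 3p strand, -0.82. The miR-139-3p value lay just short of the threshold and was not called, while both miR-143 arrays were past it. It was past the threshold without background correction (-0.62) and with the deposited ratio (-0.60). It was short of it with median centring (-0.57) and against the mean mock of HCT116 (-0.28). With median centring the miR-143-5p value became -0.47 and lost its call. DNMT1 has 1 probe, at chr19:10244023-10244082 on the minus strand (hg19), so no second measurement of it was made.

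**Figure D2:**
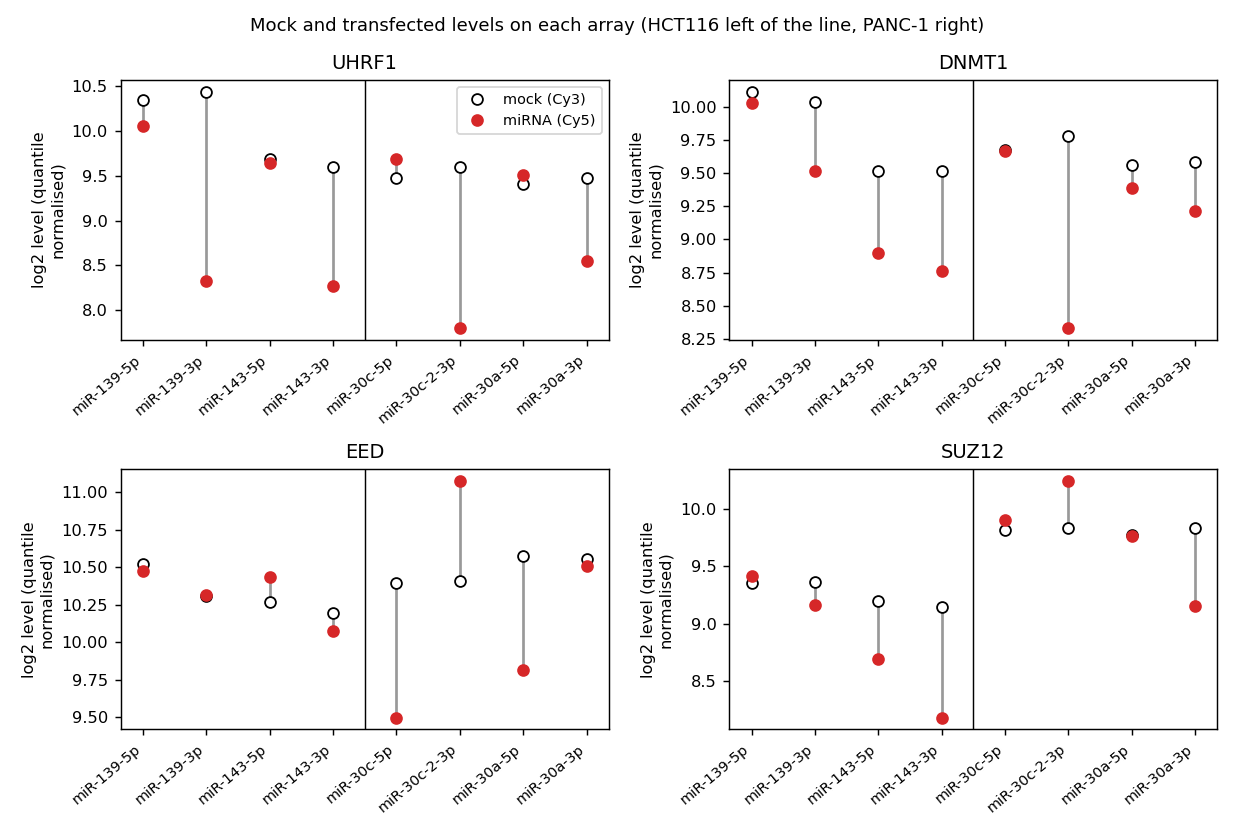
Log2 levels, quantile normalised over all 16 channels, of UHRF1, DNMT1, EED and SUZ12 on each array, with open circles for mock (Cy3) and filled circles for the transfected cells (Cy5). UHRF1 in transfected cells lies below its mock on every 3p array, and EED lies below its mock under miR-30c-5p and miR-30a-5p and above it under miR-30c-2-3p.

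The de novo methyltransferases showed both directions. The DNMT3B probe lies at chr20:31397064-31397123 on the plus strand (hg19). DNMT3B was lower under miR-139-3p at -1.29, 2.44-fold under the mock, and higher under miR-30c-2-3p at 0.62, 1.53-fold over it. Its other HCT116 values were -0.14 under miR-139-5p, -0.47 under miR-143-5p and, where the label gives its 3p strand, -0.07. Its other PANC-1 values were 0.23 under miR-30c-5p, -0.06 under miR-30a-5p and 0.23 under miR-30a-3p. Both called values kept their call under every other processing that was run. A second DNMT3B probe was not well above background in either channel of any array and gives no ratio to read.

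DNMT3A, the described miR-143-3p target, stood at 0.25 on the miR-143-3p-labelled array and was therefore not lower there. The other settings gave 0.02 to 0.45 for that value. Its other HCT116 ratios were 0.09 under miR-139-5p, 0.59 under miR-139-3p and 0.10 under miR-143-5p. In PANC-1 they were -0.18 under miR-30c-5p, -0.66 under miR-30c-2-3p, -0.09 under miR-30a-5p and 0.16 under miR-30a-3p. Neither of its 2 called values held under every setting: the median over the probes of the gene was 0.19 under miR-139-3p and -0.50 under miR-30c-2-3p, and neither is called. The 3 probes did not move together. The second, 0.68 kb from the first, gave -0.09 on the miR-143-3p-labelled array, -0.50 under miR-30c-2-3p and 0.52 under miR-30a-3p. The third lies 47.3 kb from the first on chromosome 2, and it was higher on both arrays of the miR-30 guide strands, with 0.70 for miR-30c-5p and 0.64 for miR-30a-5p, where the first probe gave -0.18 and -0.09. On the other 6 arrays the third probe ranged from -0.30 to 0.12. The files give these positions on hg19, chr2:25457095-25457154 for the first probe and chr2:25504394-25504453 for the third, both on the minus strand. They assign the third probe to a different RefSeq transcript from that of the first and second. The median over probes thus combines probes assigned to both transcripts. Which other transcripts each probe covers was not analysed here.

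EED, the PRC2 subunit that binds the finished mark, was lower on the 2 arrays of the shared miR-30 seed and on no other. Its 1 probe lies at chr11:85989629-85989688 on the plus strand (hg19). It stood at -0.88 under miR-30c-5p and -0.78 under miR-30a-5p, levels 1.83-fold and 1.72-fold under the mock. These 2 arrays had different mocks, and on each of them EED was the only one of the 8 genes past the threshold and 0.74% and 0.68% of detected genes lay lower. With the passenger strands it was 0.59 for miR-30c-2-3p, which is a higher call, and -0.11 for miR-30a-3p. The 4 HCT116 values lay close to 0, at -0.05 under miR-139-5p, -0.07 under miR-139-3p, 0.13 under miR-143-5p and, where the label gives its 3p strand, -0.19. Median centring moved the value of miR-30c-5p to -0.36 and that of miR-30a-5p to -0.39, short of the threshold. The same step moved the median of all detected genes to 0.21 and 0.15 on those arrays, so that relative to all genes EED stood at -0.57 and -0.54. The miR-30c-2-3p value was 0.54, not called, without background correction.

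SUZ12, the PRC2 scaffold, was the only one of the 8 genes printed in 10 spots, and the SD between its spots was 0.04 to 0.09 on the 8 arrays. The probe lies at chr17:30327536-30327595 on the plus strand (hg19). SUZ12 was lower on the miR-143-3p-labelled array, at -0.99 or 1.99-fold under the mock, and under miR-30a-3p, at -0.67 or 1.59-fold. The other HCT116 values were 0.07 under miR-139-5p, -0.23 under miR-139-3p and -0.55 under miR-143-5p, so both miR-143 arrays were lower than both miR-139 arrays. The miR-143-5p value was past the threshold without background correction (-0.61) and with the deposited ratio (-0.59). It was short of it against the mean mock of HCT116 (-0.57) and with median centring (-0.36). The other PANC-1 values were 0.11 under miR-30c-5p, 0.37 under miR-30c-2-3p and 0.01 under miR-30a-5p. The miR-30a-3p value did not survive median centring, where it was 0.021, or -0.28 relative to all detected genes.

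The catalytic subunits had no value past the threshold with the processing used here. Their probes lie at chr7:148504505-148504564 for EZH2 and chr17:40852674-40852733 for EZH1, both on the minus strand (hg19). EZH2, the form of dividing cells, ranged from -0.34 under miR-30a-3p to 0.03 under miR-139-5p, and was -0.17 under miR-139-3p, where UHRF1 and DNMT3B had their lowest ratios. In the remaining arrays EZH2 was -0.30 under miR-143-5p, -0.28 on the miR-143-3p-labelled array, -0.02 under miR-30c-5p, -0.01 under miR-30c-2-3p and 0.00 under miR-30a-5p. EZH1, the form of resting cells, was above 0 on 7 arrays and highest under miR-139-3p at 0.49. That value was past the threshold without background correction (0.63), with the deposited ratio (0.79) and against the mean mock of HCT116 (0.67). Its other HCT116 values were 0.06 under miR-139-5p, 0.20 under miR-143-5p and, where the label gives its 3p strand, 0.23. In PANC-1 it was -0.02 and 0.04 under the miR-30c and miR-30a 5p strands, 0.16 under miR-30c-2-3p and 0.26 under miR-30a-3p, the last of which was called with the deposited ratio (0.59).

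The counts of called members were then set beside the share of all detected genes called on the same array. With miR-139-5p no member was called, while 1.1% of 20443 genes were lower and 0.753% were higher. With miR-139-3p 2 of 8 members were lower (UHRF1, DNMT3B) and 1 was higher (DNMT3A), against 8.19% and 7.41% of 20708 genes. With miR-143-5p 1 was lower (DNMT1), against 4.07% lower and 2.7% higher of 20498 genes. The miR-143-3p-labelled array had 3 lower (UHRF1, SUZ12, DNMT1) and none higher, against 4.74% and 3.18% of 20107 genes.

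In PANC-1, miR-30c-5p had 1 lower member (EED), against 2.52% lower and 3.2% higher of 20887 genes. For miR-30c-2-3p 3 were lower (UHRF1, DNMT1, DNMT3A) and 2 higher (DNMT3B, EED), against 10.2% and 7.07% of 20703 genes. For miR-30a-5p 1 was lower (EED), against 1.7% lower and 1.83% higher of 20944 genes. For miR-30a-3p 2 were lower (UHRF1, SUZ12), against 3.76% lower and 3.37% higher of 22063 genes. A count of 1 among 8 genes is the smallest that can be called and says little beside these shares.

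**Figure D3:**
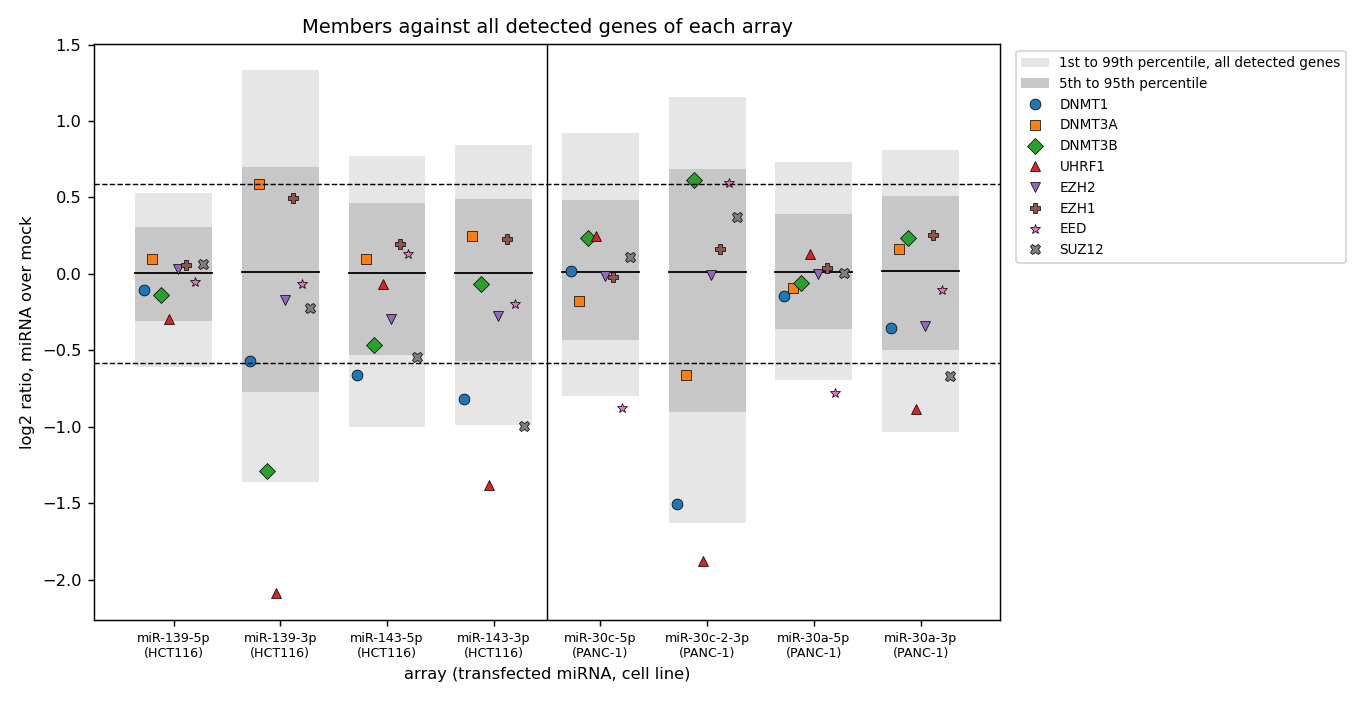
Log2 ratio of the 8 genes (symbols) on each array over the range of all detected genes, with the 1st to 99th percentile in light grey, the 5th to 95th in dark grey, the median as a line and the 1.5-fold threshold dashed. UHRF1 lies under the 1st percentile on the miR-139-3p, miR-143-3p and miR-30c-2-3p arrays, SUZ12 lies at its edge on the miR-143-3p array, and EED falls below it for miR-30c-5p and also for miR-30a-5p.

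Partners of these genes were taken from lists written from general knowledge with earlier results of these data known. Of the DNA methylation partners, 6 of 7 were detected on 7 arrays, and DNMT3L joined them under miR-30a-3p alone. CDCA7, which activates the remodeller HELLS at methylated DNA, was lower on 4 arrays. It stood at -1.94 under miR-139-3p, -1.63 on the miR-143-3p-labelled array, -2.08 under miR-30c-2-3p and -0.60 under miR-30c-5p. The first 3 are also the arrays on which UHRF1 was lowest. ZBTB24, a regulator of CDCA7, was lower under miR-139-3p at -0.80 and under miR-30c-2-3p at -0.84, and HELLS under miR-139-3p only, at -0.65. USP7, the deubiquitinase that binds DNMT1 and UHRF1, lay between -0.13 and 0.19 on all 8 arrays, and UHRF2, the paralogue of UHRF1, between -0.30 and 0.36.

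On the opposing side, the demethylation list had 6 genes. GADD45A and GADD45B, stress genes linked to demethylation, were higher under miR-139-3p at 0.99 and 1.38, and GADD45A was higher under miR-30c-5p at 1.24 and miR-30a-5p at 0.64. TDG, the glycosylase that removes oxidised methylcytosine, was higher under miR-30a-3p at 0.90, and GADD45B was higher there at 0.74. TET1, which oxidises methylcytosine, was lower under miR-30c-2-3p at -0.74, as was GADD45B at -0.81. TET2 and TET3 were called on no array. Of the 8 methyl-CpG readers, MBD1 was higher under miR-139-3p at 1.23 while MBD2 was lower at -0.80, ZBTB33 was lower on the miR-143-3p-labelled array at -0.63, and ZBTB4 was lower under miR-30c-2-3p at -0.73.

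Of the 10 PRC2 partners, 3 were lower and 2 higher under miR-139-3p, and 3 lower and 1 higher on the miR-143-3p-labelled array. RBBP4, the histone chaperone of the core complex, was lower on both, at -1.12 and -0.61, as was C17orf96 (now EPOP), at -1.10 and -0.82. PHF19, which helps PRC2 bind CpG islands, was lower under miR-139-3p at -0.98. JARID2, the subunit that helps bring PRC2 to its targets, was higher on 4 arrays, with 0.62 for miR-139-3p, 0.66 for miR-143-3p, 0.74 for miR-30c-2-3p and, with the other PANC-1 passenger, 0.92. MTF2 was higher under miR-139-3p at 0.65 and under miR-30c-2-3p at 0.97, and C10orf12 was higher under miR-30c-2-3p at 0.94. AEBP2 was lower under miR-139-5p at -0.59 and on the miR-143-3p-labelled array at -0.63. No PRC2 partner was called under miR-143-5p, miR-30c-5p or miR-30a-5p.

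PRC1, which reads the PRC2 mark and ubiquitinates histone H2A, was covered by 24 genes, of which 0 to 4 were lower and 0 to 3 higher on an array. CBX2, a reader subunit, was lower under miR-139-3p at -1.62, miR-30c-2-3p at -1.13, miR-30c-5p at -0.91 and miR-30a-5p at -0.63. CBX7, another reader, was higher under miR-139-3p at 1.07. PCGF6 was lower under miR-143-5p at -1.04, miR-30c-5p at -0.60 and miR-30a-5p at -0.64. Of the enzymes that remove Polycomb marks and their cofactors, ASXL2 was lower on the miR-143-3p-labelled array at -0.75, and KDM6A, the demethylase of lysine 27, was higher under miR-30c-2-3p at 0.89. Of 11 other lysine methyltransferases, 3 had a called value: SUV39H2 at -1.34 on the miR-143-3p-labelled array, EHMT2 at -0.80 under miR-30c-2-3p and SUV39H1 at -0.61 under miR-30a-3p.

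Genes known to be silenced by the 2 systems were read as well. Of 10 germline genes that are silenced by DNA methylation, 9 were not well above background on any array, among them DAZL, DDX4 and MAEL. The only one detected, RPL10L, is a near copy of RPL10 whose probe may read both, and it lay between -0.58 and 0.12. Of 11 genes named as Polycomb targets, 7 to 10 were detected on an array. CDKN1C, a brake on cyclin-dependent kinases, was higher under miR-139-3p at 1.80, on the miR-143-3p-labelled array at 1.12 and under miR-30a-5p at 0.71. HOXA9 was higher under miR-139-3p at 2.20 and on the miR-143-3p-labelled array at 0.62, while RUNX3 was lower under miR-139-3p at -0.94. CDKN2A, the classical Polycomb target, lay between -0.06 and 0.39 and was not called on any array. Whether either line carries intact copies of these genes was not analysed here, so an uncalled value does not show that repression was kept.

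Because UHRF1, DNMT1 and EZH2 are made mostly in dividing cells, 28 genes of S phase were set beside them. All 28 were detected on every array. With miR-139-3p 20 were lower and none higher (median -0.84), with MCM2 at -2.25, CCNE1 at -2.12 and CDC45 at -1.65. The miR-143-3p-labelled array had 11 that were lower and none higher (median -0.49), under miR-30c-2-3p 13 were lower and 1 higher (median -0.25), and under miR-143-5p 6 were lower and none higher (median -0.26). The miR-30a-3p array, where UHRF1 was -0.89 and SUZ12 -0.67, had 1 lower and 1 higher, with a median of -0.11. The miR-143-5p array had DNMT1 at -0.66 but UHRF1 at -0.07. The remaining 3 arrays had 0 to 3 lower and 0 to 2 higher, with medians of 0.01, -0.06 and -0.11 for miR-139-5p, miR-30c-5p and then miR-30a-5p. The medians of all detected genes were 0.01 to 0.02 on the 8 arrays. The part of S-phase genes in the ratios of the members was not tested.

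**Figure D4:**
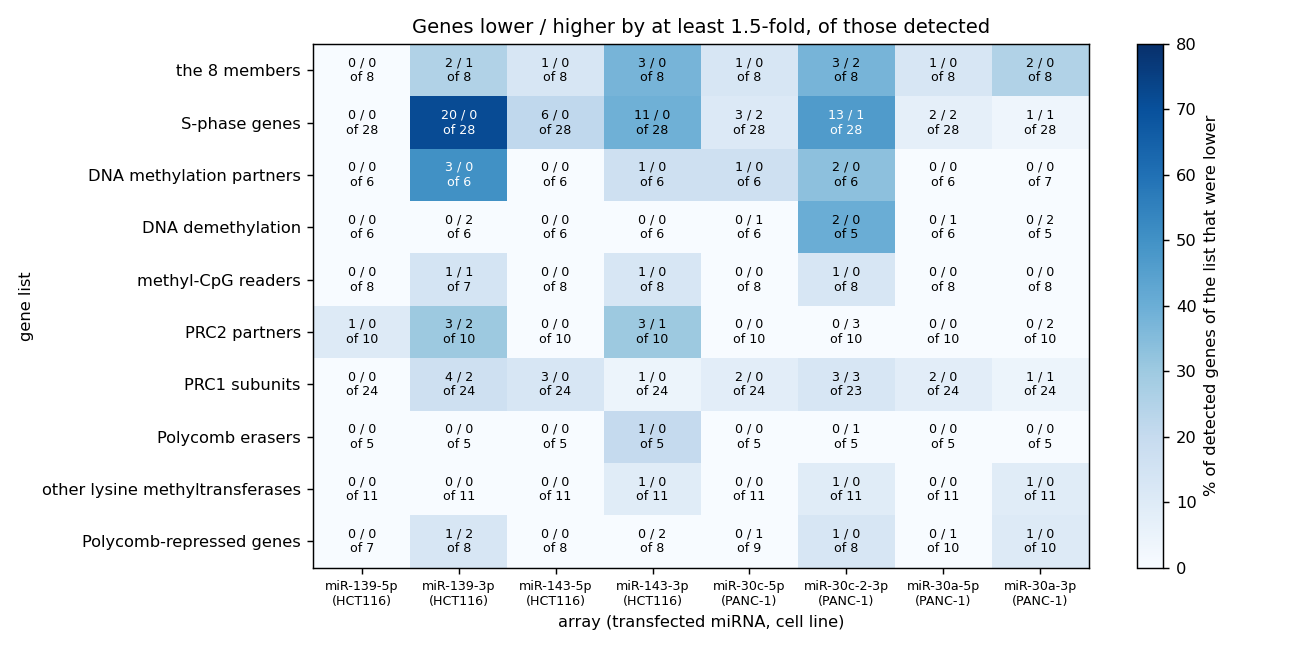
Number of genes lower / higher by at least 1.5-fold, of those detected, for the 8 genes and 9 lists (rows) on the 8 arrays (columns), with the percentage that was lower as colour. The S-phase list has its highest share under miR-139-3p (20 of 28), and the PRC2 partners have no lower gene on any PANC-1 array.

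The promoters of the 8 genes were searched for the octamers TTTCCCGC, TTTGGCGC, TTTCGCGC and TTTGCCGC on both strands, letters that E2F factors of the cell cycle are known to favour. The windows were RefSeq sequences of GRCh38.p14, 250 bases before to 50 after each gene start. A match was found in 5 of the 8 genes and in 6 of their 16 windows, against 3.31% of all 35116 windows and 3.99% of the 27305 genes with a window. These shares cover windows of every kind and were not matched to the members in base composition or CpG content. The difference from them was not tested. DNMT3A, DNMT3B and EED had no match in any of their windows. The matches are shown with 10 bases on each side, on the strand of the gene and with the octamer in capitals, since they set UHRF1, DNMT1 and SUZ12 beside EZH2 and EZH1.
DNMT1, chr19:10194938-10194965, minus strand: atcggtttccGCGCGAAAagccggggcg
UHRF1, chr19:4909477-4909504, plus strand: ccgagttttcGCGGGAAAaaaatcagag
UHRF1, chr19:4909974-4910001, plus strand: ccgagcccgaTTTCGCGCgccctgagtt
EZH2, chr7:148884273-148884300, minus strand: ggctgccgcgTTTGGCGCtcggtccggt
EZH1, chr17:42745138-42745165, minus strand: cggggttttgGCGGCAAAtgacagtagt
SUZ12, chr17:31936808-31936835, plus strand: gacccctaatTTTCCCGCgaattcagtt
The octamer began 2 bases before the start in DNMT1, 115 before in EZH1 and 189 before in SUZ12. In UHRF1 it began 14 and 160 bases before 2 of the 3 starts, and in EZH2 at base 2 after 1 of the 2 starts. A match is a description of the letters and not of binding.

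The mock channels gave the level of each gene without a transfected miRNA. They were compared between the lines with limma, with n = 2 averaged mocks per line. On quantile-normalised log2 levels, DNMT3B was 9.01 and 8.34 in the HCT116 mocks of the miR-139 and miR-143 arrays and 7.52 and 7.56 in the PANC-1 mocks of the miR-30c and miR-30a arrays. The HCT116 mocks were thus higher without overlap, by 1.14 ± 0.25 (SE), with a limma adjusted p of 0.037. SUZ12 was 9.36 and 9.17 against 9.82 and 9.80, lower in HCT116 by a difference of -0.55 ± 0.08 (limma adjusted p = 0.016). EZH1 was 7.07 and 6.87 against 6.52 and 6.36, higher in HCT116 by 0.53 ± 0.10 (limma adjusted p = 0.029).

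These were 3 of 8 members, where 38.5% of 22386 genes had an adjusted p under 0.05, so the share of members was close to the background. With either PANC-1 mock left out none of the 3 kept its call, with limma adjusted p of 0.188 and 0.178 for DNMT3B, 0.119 and 0.113 for SUZ12 and 0.108 and 0.157 for EZH1 without the miR-30c and the miR-30a mock. Line and slide column cannot be told apart, as all HCT116 arrays lay in one column and all PANC-1 arrays in the other. The other 5 genes did not pass: DNMT3A had a difference of -0.45 (limma adjusted p = 0.080), UHRF1 0.52 (0.231), EED -0.16 (0.298), DNMT1 0.15 (0.649) and EZH2 0.11 (0.753).

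**Figure D5:**
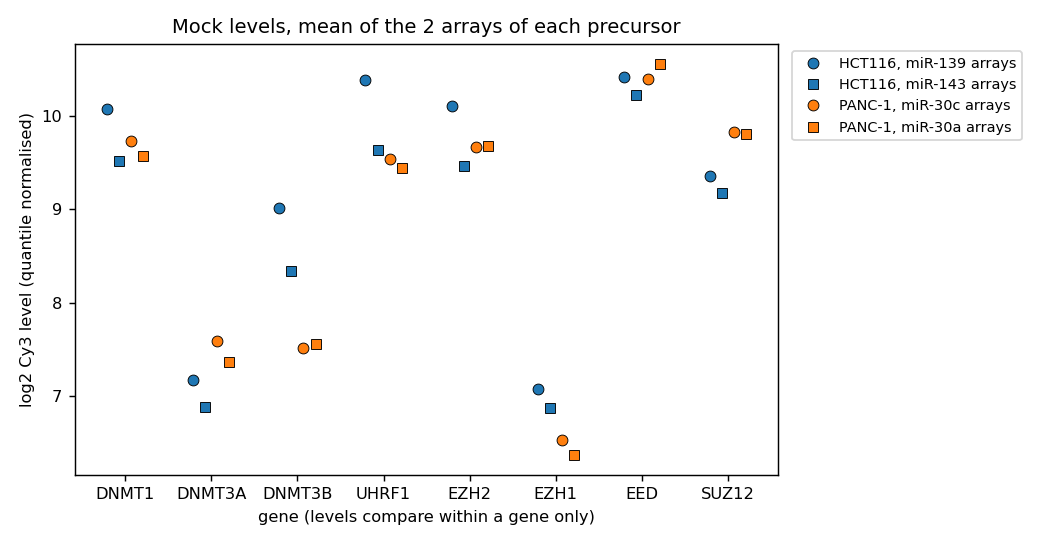
Quantile-normalised log2 mock level of the 8 genes, 1 point for each of the 4 averaged mocks (blue HCT116, orange PANC-1, circles and squares for the 2 precursors of a line). The 2 HCT116 mocks of UHRF1, DNMT3B, EZH2 and DNMT1 lie 0.56 to 0.75 apart, whereas the 2 PANC-1 mocks of each gene lie at most 0.22 apart.

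The 2 HCT116 mocks also differed from each other. The miR-139 mock was above the miR-143 mock by 0.75 for UHRF1, 0.67 for DNMT3B, 0.64 for EZH2 and 0.56 for DNMT1, and by 0.29, 0.20, 0.19 and 0.18 for DNMT3A, EZH1, SUZ12 and EED. The first 3 are at least 1.5-fold, which 4.9% of 20426 genes were. In PANC-1 no member reached that size between mocks and 1.18% of 20333 genes did. The S-phase genes moved with this gap: 26 of 28 were higher in the miR-139 mock of HCT116, 5 of them by at least 1.5-fold, with a median of 0.43, against 13 of 28 and a median of -0.01 for the miR-30c mock over the miR-30a mock of PANC-1. Their part in the gap was not tested. Set against the mean of both HCT116 mocks, UHRF1 was still past the threshold under miR-139-3p and on the miR-143-3p-labelled array, and DNMT1 on both miR-143 arrays.

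For each member the genes with the most similar ratios over the 8 arrays were sought among 6528 genes that passed the background call in each channel of every array and varied by an SD of at least 0.3. Pearson's r over 8 arrays is a description here, as arrays of a precursor share a mock. RNF139, HMGN3 and CKS2 were closest to EED (r = 0.98, 0.97 and 0.97). CTPS1, C6orf106 and CKAP4 were closest to UHRF1 (0.98, 0.98 and 0.96). SERTAD2 and INPPL1 were among the closest to DNMT1 (0.96 and 0.93), and TOP1 and its near copy TOP1P2 to SUZ12 (0.97 and 0.98). For EZH2 they were ARHGAP12, IGF2BP2 and LMNB1 (0.97, 0.96 and 0.94), and for DNMT3B ARCN1, WDR5 and C17orf51 (0.97, 0.97 and 0.96). For DNMT3A they were SYCE2, H1FX and NPFF (0.97, 0.97 and 0.97), and NSUN4 and MRPL48 were among the closest to EZH1 (0.95 and 0.95). No member was among the 3 closest genes of another member, but EZH2 and EZH1 varied too little to be among the genes sought. Between members, r was highest for EZH2 with SUZ12 (0.90) and UHRF1 with DNMT1 (0.72), and lowest for DNMT3A with DNMT3B (-0.83). The first of these rests on EZH2 ratios that ran only from -0.34 to 0.03, none of them called.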

How the data were processed

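Gene expression was measured on 8 two-colour Agilent arrays, 1 per miRNA, with groups taken from the labels. Per the file headers, Agilent Feature Extraction (version 11.5.1.1) gave each spot a mean intensity and a median background intensity in both channels. The deposited value table holds the log10 ratio of processed Cy5 over Cy3 and equals the scanner output (largest difference 0 over 62976 spots). Probe positions are those of the files, on hg19. Here, in R with limma 3.58.1, intensity was background corrected by normexp (offset 50, which understates changes of dim probes), control spots were removed, ratios were normalised within each array by loess, outlier spots were dropped and spots of a probe averaged. A gene was represented by its brightest probe over the 8 arrays and counted as detected when at least 0.5 of its spots were well above background in 1 channel. Mock levels were quantile normalised, averaged within a precursor and compared with limma (Benjamini-Hochberg over all detected genes). P-values measure only the spread between these 2 mocks per line, which may be technical. The number of arrays limits the precision.

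Members and gene lists were chosen with earlier results of these data known. Named genes were all members on all arrays, the up to 3 lowest and 3 highest called genes per list and array that were above background in both channels, and the 3 genes most similar to each member; values of USP7, UHRF2, CDKN2A and the listed ranges were added after their values were seen. The code was tested on simulated data. The alternatives were no background correction, the deposited log ratio, median centring, the mean mock of the line, the median over probes, other detection filters, processed Cy3 signals, single Cy3 channels as samples, and leaving out each mock. Columns without a sample numbered 0. Figures were drawn in Python 3.11.15 with matplotlib 3.10.9.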

Additional observations from a re-analysis of the deposited data

How the results depend on the processing

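The ratios have no replicate, so only the size rule could be recomputed. Of the 16 called member values, 8 kept their call under all 5 other ways of forming the ratio: UHRF1 under miR-139-3p, miR-143-3p and miR-30c-2-3p, DNMT1 under miR-143-3p and miR-30c-2-3p, DNMT3B under miR-139-3p and miR-30c-2-3p, and SUZ12 under miR-143-3p. Median centring in place of loess gave no lower member under miR-143-5p, miR-30c-5p, miR-30a-5p and miR-30a-3p (0 of 8 each), 3 higher members under miR-30c-5p and 3 under miR-30a-3p, and turned SUZ12 under miR-30a-3p to 0.021. It also brought the median of all detected genes to as much as 0.30, so that higher and lower genes came to 31.2% and 0.689% under miR-30a-3p, 18.7% and 0.464% under miR-30c-5p, 10.3% and 0.430% under miR-30a-5p, 13.5% and 7.03% under miR-30c-2-3p, 7.65% and 2.08% under miR-143-5p and 4.17% and 0.460% under miR-139-5p. Lower members under miR-143-5p numbered 2 without background correction and with the deposited ratio, with SUZ12 added, and against the mean mock, with DNMT3B added (-0.80). Higher members under miR-139-3p numbered 2 under the same 3 settings, with EZH1 added, and 0 with the median over probes. Higher members under miR-30c-2-3p numbered 1 without background correction, and under miR-30a-3p 1, EZH1, with the deposited ratio. The other counts of members stayed as reported or within 1.5 times, and the cause of these moves was not tested. Of the 12 probes, 1 was not well above background on any array, the second of DNMT3B. The third DNMT3A probe passed that call but was dim in HCT116.

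Between the lines, counting each Cy3 channel as a sample called 14043 genes instead of 8611 and added DNMT3A (-0.45, limma adjusted p = 0.003) and UHRF1 (0.52, limma adjusted p = 0.043), but the channels of a precursor measure nearly the same mock again, so these p-values are too small. Leaving out the miR-30c mock left 1768 genes and leaving out the miR-30a mock 1951, the lowest of the 4, with 8984 the highest. Over these 4 settings the difference ranged from -0.13 to 0.43 for DNMT1, from -0.60 to -0.31 for DNMT3A, from 0.80 to 1.48 for DNMT3B, from 0.15 to 0.90 for UHRF1, from -0.21 to 0.43 for EZH2, from 0.43 to 0.63 for EZH1, from -0.25 to -0.07 for EED and from -0.64 to -0.45 for SUZ12. DNMT1 (-0.13) and EZH2 (-0.21) changed sign without the miR-139 mock of HCT116, where EZH1 lost its call (0.43, limma adjusted p = 0.055) and DNMT3A gained one (-0.60). UHRF1 (0.90) and EZH2 (0.43) were called without the miR-143 mock. No paired analysis was possible because each array is the only one of its miRNA and the labels give no replicate numbers that groups share.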
